A study of Mus musculus with 6 samples.

Results

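Constitutive proteasome genes were compared between tumour-exposed macrophages from E-FABP knockout mice and from wild-type mice. They were chosen by name: every probe set whose platform annotation gives a single gene symbol starting with Psma, Psmb, Psmc, Psmd, Psme, Psmf or Psmg and a digit, without the inducible subunits Psmb8, Psmb9 and Psmb10 and the interferon-inducible cap genes Psme1 and Psme2, and with the brightest probe set standing for each gene. The rule found 45 of the 18193 genes measured. Of these, 43 code for subunits, assembly chaperones or regulators of the proteasome and are the members described here. The other 2, Psmc3ip and Psme3ip1, carry a proteasome gene's name but code for partner proteins, and are given separately.

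The 6 samples were 3 knockout and 3 wild-type cultures, numbered 1 to 3 within a genotype. The donor mice, 6 to 8 weeks old, are labelled C57BL/6 in both groups, and the knockouts lack Fabp5, the gene of E-FABP, a carrier of fatty acids also made by the epidermis. Bone marrow cells were cultured with GM-CSF (20 ng/ml) for 7 days, and all 6 cultures then shared a well for 18 h with E0771 mouse breast tumour cells held in an insert, so no culture without tumour cells enters the comparison. The labels name biological replicates without saying whether each was a separate animal, so p-values measure the spread between these samples, which may in part be technical.

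The proteasome degrades proteins that carry a ubiquitin chain. Its 20S core is a stack of rings, with alpha subunits forming the gated outer rings and beta subunits the inner rings, where Psmb5, Psmb6 and Psmb7 hold the catalytic sites. The 19S cap binds ubiquitin chains, removes them and threads the substrate into the core, using a ring of ATPases in its base and a deubiquitinase in its lid. Interferon makes macrophages swap the 3 catalytic subunits for inducible ones, which gives the immunoproteasome known for making peptides for MHC class I.

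The arrays carried their stated genotype: Fabp5 read 8.27 ± 0.13 in knockout and 14.44 ± 0.03 in wild type (log2 probe set value, mean ± SD, n = 3 each). Of the measured macrophage markers, 0 of 7 lay below 5.63, the median of all values. This level does not single out macrophages, as only 1 of 9 dendritic cell markers and 2 of 10 neutrophil markers lay below it. Array medians lay between 5.598 and 5.640. Wild-type replicate 2 stood apart for the genes described here: it was the lowest of the 6 arrays for 19 of the 31 subunits of the 26S particle (20S core plus 19S cap), so results are also given without it.

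The genes of the proteasome particle were nearly level between the genotypes, apart from the testis subunit Psma8, which did not pass the test. A chaperone that helps build the particle was higher and one of its alternative caps was lower in knockout. Of the 43 members, Psmg1 rose and Psme4 fell at an adjusted p under 0.05 (limma, adjusted over all 45037 probe sets tested), and 41 did not pass. Over all genes 2.85% rose and 2.05% fell by the same rule, or 4.9% in either direction (7.33% of genes above the median level), so the members' 2 of 43 do not stand out. The median difference of the members, knockout minus wild type, was 0.04 on the log2 scale, beside 0.01 for all genes, and it was 0.0076 without wild-type replicate 2. In 38 of 43 members (88.4%) the difference was smaller than 0.2 in size, beside 79.4% of all genes and 72.7% of the 11285 genes above the median level. A set of genes matched to the members in brightness was not compared.

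**Figure D1:**
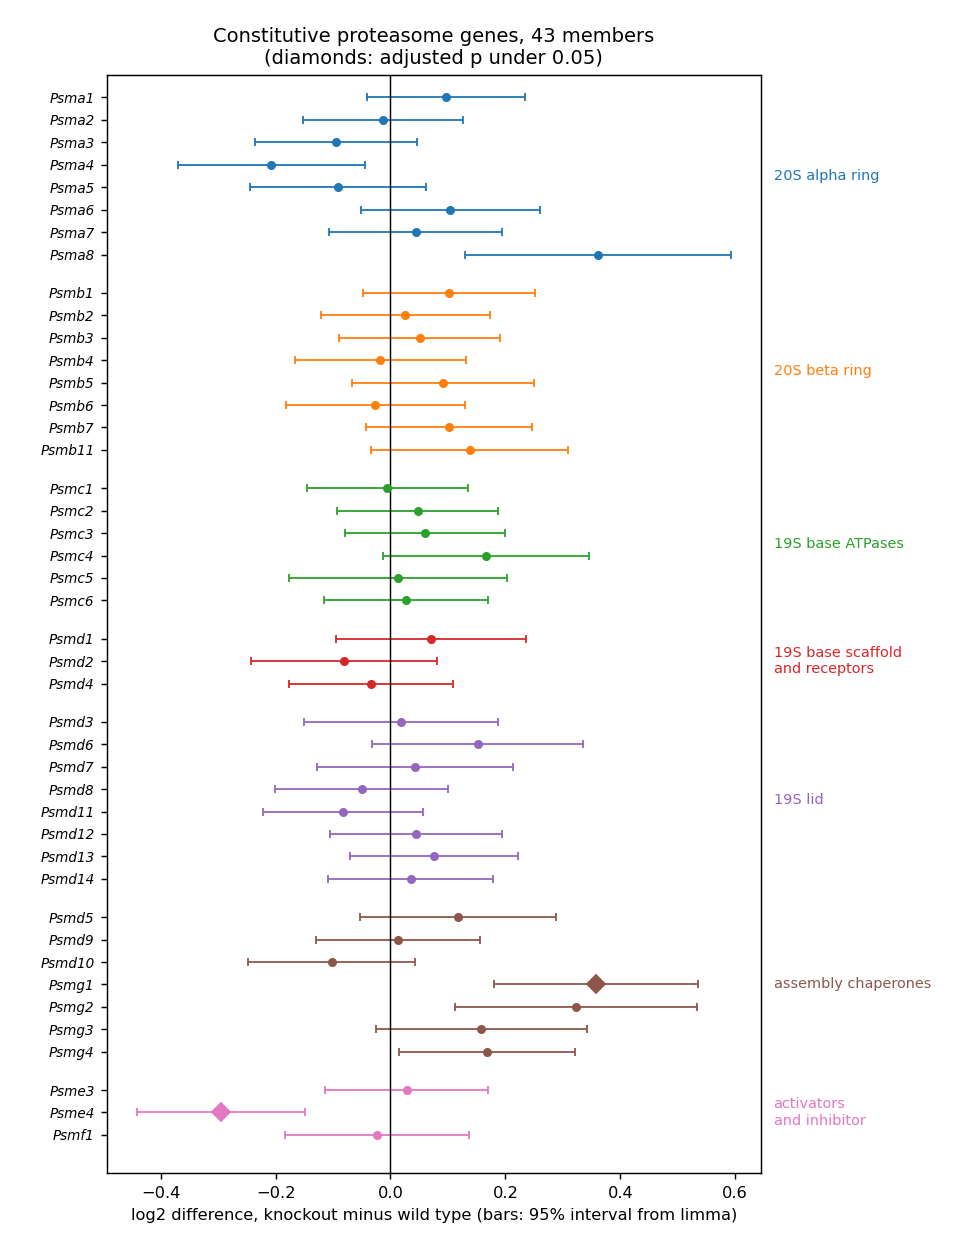
Log2 difference between knockout and wild type (x axis) for each of the 43 members (y axis), grouped by subcomplex; points are estimates, bars are 95% intervals from limma, and diamonds mark an adjusted p under 0.05. The 31 subunits of the core and the cap without Psma8 and Psmb11 lie between -0.21 (Psma4) and 0.17 (Psmc4). The testis subunit Psma8 lies at 0.36 without passing, Psmg1 at 0.36 and Psme4 at -0.29.

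The sequences before the transcription start of 4 members are shown, from RefSeq on GRCm38.p6: Psmg1 and Psme4 because they passed the test, and Psmb5 and Psmb6 because they are catalytic subunits with a match to a motif tied to proteasome genes. That motif is the core of the antioxidant response element, TGACNNNGC, which the factor NRF1 (Nfe2l1), a known regulator of proteasome genes, can bind. Each run holds the 250 bases before the start, on the gene's strand. Capitals mark a match, on either strand.
Psmg1, chr16:95990961-95991210, minus strand: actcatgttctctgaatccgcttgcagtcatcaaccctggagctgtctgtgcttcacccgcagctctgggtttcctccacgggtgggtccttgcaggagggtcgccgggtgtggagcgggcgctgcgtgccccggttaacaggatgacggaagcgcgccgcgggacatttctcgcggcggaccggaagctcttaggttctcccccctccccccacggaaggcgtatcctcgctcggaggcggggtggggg
Psme4, chr11:30771525-30771774, plus strand: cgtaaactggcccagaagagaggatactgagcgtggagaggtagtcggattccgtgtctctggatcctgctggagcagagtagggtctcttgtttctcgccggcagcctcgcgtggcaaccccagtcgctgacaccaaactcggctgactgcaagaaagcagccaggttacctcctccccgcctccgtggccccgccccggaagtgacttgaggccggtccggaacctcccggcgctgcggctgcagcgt
Psmb5, chr14:54617996-54618245, minus strand: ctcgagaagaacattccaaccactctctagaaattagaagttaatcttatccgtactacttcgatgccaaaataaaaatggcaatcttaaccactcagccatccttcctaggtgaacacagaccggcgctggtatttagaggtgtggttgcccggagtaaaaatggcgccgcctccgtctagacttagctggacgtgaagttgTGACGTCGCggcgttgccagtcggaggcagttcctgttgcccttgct
Psmb6, chr11:70525107-70525356, plus strand: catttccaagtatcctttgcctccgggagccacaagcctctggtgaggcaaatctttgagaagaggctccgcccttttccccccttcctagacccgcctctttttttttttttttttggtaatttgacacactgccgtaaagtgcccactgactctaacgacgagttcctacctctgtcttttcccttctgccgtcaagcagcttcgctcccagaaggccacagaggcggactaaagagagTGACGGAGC
The match lay 47 to 39 bases before the start in Psmb5 and 9 to 1 bases before it in Psmb6. In Psme4 a match ran from 7 bases before the start to the 2nd base after it, and so is not within the run shown. Psmg1 held no match.

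Promoter windows of 300 bases (250 before the start and 50 after) were found for 35 of the 43 members, without Psma8, Psmb1, Psmb2, Psmb7, Psmc3, Psmd3, Psmd7 and Psmg2. The motif occurred in 6 of the 35 (17.1%), against 14% of 27025 genes. The 6 were Psmb5, Psmb6, Psmc6, Psmd12, Psmd9 and Psme4. The interferon response element core (GAAA, any 2 bases, GAAA), also searched on both strands, occurred in 4 of the 35 (11.4%; Psmb3, Psmd4, Psmd9 and Psmg4), against 3.99% of all genes, and Psmd9 was the single member with both motifs. Such matches describe the letters, and binding was not measured.

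In the alpha ring of the 20S core, 0 of the 7 subunits found in every cell passed the test (limma) with their brightest probe set, and 1, Psma4, had an unadjusted p under 0.05, as had 23.4% of all genes. Psma4 read 12.26, 12.21 and 12.22 in knockout replicates 1 to 3 and 12.36, 12.55 and 12.41 in wild type, so the groups did not overlap. The difference was -0.21 (SE 0.07, limma adjusted p = 0.146), or 86.6% of the wild-type level. It passed with trend and robust settings (limma adjusted p = 0.0295). Psma3 (-0.09), Psma5 (-0.09) and Psma2 (-0.013) had a lower mean in knockout. Psma1 (0.10), Psma6 (0.10) and Psma7 (0.04) had a higher one. Psma1 has 4 probe sets, and a dimmer one ending in _x_at passed: it read 6.71, 6.97 and 6.80 in knockout and 6.42, 6.49 and 6.49 in wild type, a difference of 0.36 (SE 0.08, limma adjusted p = 0.0460), while the brightest read 11.96, 11.96 and 11.98 against 11.88, 11.88 and 11.85 (limma adjusted p = 0.422). By their brightest probe sets, the ring's 7 subunits spread around 0, with a median of -0.013. Psma8, the alpha subunit of the testis, read 6.46, 6.27 and 6.42 in knockout and 5.98, 5.86 and 6.23 in wild type, close to the median of all values. Its difference was 0.36 (SE 0.10, limma adjusted p = 0.0890), with groups that did not overlap, and it passed when wild-type replicate 3 was left out (adjusted p = 0.0472).

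The catalytic beta subunits did not pass the test. Psmb5, which carries the chymotrypsin-like site, read 11.96, 11.93 and 11.98 in knockout and 11.92, 11.76 and 11.91 in wild type. All knockout values lay above the wild-type ones, by little except for wild-type replicate 2, and the difference was 0.09 (SE 0.07, limma adjusted p = 0.513), or 0.04 without that array. Psmb6, with the caspase-like site, read 12.39, 12.36 and 12.44 against 12.48, 12.34 and 12.45, overlapping groups with a difference of -0.03 (SE 0.07, limma adjusted p = 0.877). Psmb7, with the trypsin-like site, read 9.35, 9.28 and 9.36 against 9.24, 9.19 and 9.25. These did not overlap, and the difference was 0.10 (SE 0.06, limma adjusted p = 0.420). Translated into levels, the knockout stood at 106.6% (Psmb5), 98.2% (Psmb6) and 107.3% (Psmb7) of wild type. The structural subunits Psmb1 (0.10), Psmb2 (0.03), Psmb3 (0.05) and Psmb4 (-0.018) gave values of the same order. Psmb11, the thymus-specific catalytic subunit, read 4.18, 4.05 and 4.15 in knockout and 3.92, 3.94 and 4.10 in wild type. The groups overlapped, under the median of all values, with a difference of 0.14 (limma adjusted p = 0.357).

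The 6 ATPases that form the ring of the 19S base were as level. Psmc4 had the smallest p among them, at 11.49, 11.46 and 11.61 in knockout against 11.47, 11.25 and 11.36 in wild type. The groups overlapped, and the difference was 0.17 (SE 0.08, limma adjusted p = 0.286), or 0.11 without wild-type replicate 2 and 0.09 with the mean of its probe sets. The other 5 ATPases differed by -0.0055 (Psmc1), 0.05 (Psmc2), 0.06 (Psmc3), 0.013 (Psmc5) and 0.03 (Psmc6). Among the non-ATPase subunits of the base, the scaffold Psmd2 read 11.32, 11.39 and 11.30 in knockout and 11.50, 11.32 and 11.43 in wild type, overlapping groups with a difference of -0.08 (SE 0.07, limma adjusted p = 0.590). The larger scaffold Psmd1 (0.07) and the ubiquitin receptor Psmd4 (-0.03) lay to either side of 0.

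The lid, 8 subunits around the deubiquitinase Psmd14, gave the same picture. Psmd14 itself read 12.07, 12.05 and 12.06 in knockout and 12.04, 11.97 and 12.06 in wild type, a difference of 0.03 (SE 0.06, limma adjusted p = 0.815) with overlapping groups. Psmd6 had the smallest p of the lid. Its values were 11.72, 11.64 and 11.76 against 11.66, 11.41 and 11.60, which overlapped, and its difference was 0.15 (SE 0.08, limma adjusted p = 0.342). It was 0.08 without wild-type replicate 2, the lowest value of the 6, and 0.10 with the mean of its probe sets. The other lid genes lay between -0.08 (Psmd11) and 0.08 (Psmd13), with Psmd3 at 0.018, Psmd7 at 0.04, Psmd8 at -0.05 and Psmd12 at 0.04. Psmd11 had 8 probe sets, and the second brightest differed from the brightest in sign, at 0.17 against -0.08.

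Set together, the 31 subunits of the core and cap, without the tissue-specific Psma8 and Psmb11, had 0 members past the limma threshold. An unadjusted p under 0.05 was found for 1 of the 31, Psma4, beside 23.4% of all genes. Psma4 is also the one that passed with trend and robust settings. Their differences ran from -0.21 to 0.17 with a median of 0.03. The 95% intervals, unadjusted, reached from -0.37 at the lowest bound to 0.34 at the highest, or 77.4% to 127.0% of the wild-type level. A change beyond these bounds lies outside the interval of each subunit, while a smaller one can lie within it. Single intervals were narrower, such as -0.15 to 0.13 for Psmc1. That of Psma4, -0.37 to -0.045, did not include 0. A mean higher in knockout was found for 20 of the 31, beside 53.1% of all genes, and for 16 of 31 without wild-type replicate 2, when their median was 0.0015 and the differences of 18 of the 31 had moved by over 1.5 times or changed sign. The groups did not overlap for 8 subunits higher in knockout and 3 lower; over all genes 20.7% were so separated upward and 11.2% downward, 31.9% in all. The 31 subunits read 9.10 or more in the mean of the 6 arrays, and of the genes above the median level 42.7% did not overlap. The median SD within a genotype was 0.05 for the 31, against 0.08 for genes above the median level. Those genes include dimmer ones, and a set matched in brightness was not compared.

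The 4 Psmg genes, chaperones of 20S core assembly, had higher means in knockout, and 1 of them, Psmg1, passed the test. Psmg1 and Psmg2 form a pair that assembles the alpha ring, and Psmg3 and Psmg4 form a second pair that acts on it. Psmg1 read 9.06, 9.04 and 8.98 in knockout and 8.73, 8.52 and 8.75 in wild type. The lowest knockout value thus lay above the highest wild-type value, and the difference was 0.36 (SE 0.08, limma adjusted p = 0.0431), or 128.2% of wild type with a 95% interval of 0.18 to 0.54 on the log2 scale. It was higher in all fits that left out an array, at 0.29 to 0.40, but lost the call in all 6 of them (adjusted p = 0.0615 to 0.129).

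Psmg2 did not pass with its brightest probe set and passed with the next. The brightest read 9.02, 8.88 and 8.997 in knockout and 8.77, 8.45 and 8.71 in wild type, without overlap, a difference of 0.32 (SE 0.09, limma adjusted p = 0.0919). The second probe set, nearly as bright, read 8.77, 8.72 and 8.77 against 8.30, 8.34 and 8.49, a difference of 0.38 (SE 0.07, limma adjusted p = 0.0298). The remaining, dim one (mean 5.62 over the 6 arrays) had the opposite sign, at -0.09. The mean of the probe sets gave 0.20 (limma adjusted p = 0.0694), and the brightest passed with trend and robust settings (limma adjusted p = 0.0420). Psmg3 read 8.99, 9.02 and 9.03 against 8.93, 8.69 and 8.94, and Psmg4 8.89, 8.93 and 8.94 against 8.66, 8.80 and 8.79. Neither overlapped and neither passed, with differences of 0.16 (SE 0.08, limma adjusted p = 0.321) and 0.17 (SE 0.07, limma adjusted p = 0.206). Psmg3 lay at 0.08 without wild-type replicate 2 (limma adjusted p = 0.623).

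For all 4 Psmg genes the 3 knockout values therefore lay above the 3 wild-type values, as in 20.7% of all genes. The 4 read above the median level, where 42.7% of genes did not overlap in either direction, beside 31.9% of all genes. The median difference of the 4 was 0.25. Without wild-type replicate 2, the lowest array for Psmg1, Psmg2 and Psmg3 but the highest wild-type one for Psmg4, it was 0.21, and 0 of the 4 passed by limma, with 3 at an unadjusted p under 0.05. Of the 3 chaperones of the 19S base, 0 passed: Psmd5 lay at 0.12, Psmd9 at 0.013 and Psmd10, known as gankyrin, at -0.10 (limma adjusted p = 0.431, 0.939 and 0.422), with Psmd5 at 0.06 without wild-type replicate 2. Pomp, another chaperone of 20S core assembly, which matures the beta ring and falls outside the naming rule, lay at -0.07 (limma adjusted p = 0.622). Whether the Psmg genes differed from these other chaperones was not tested.

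**Figure D2:**
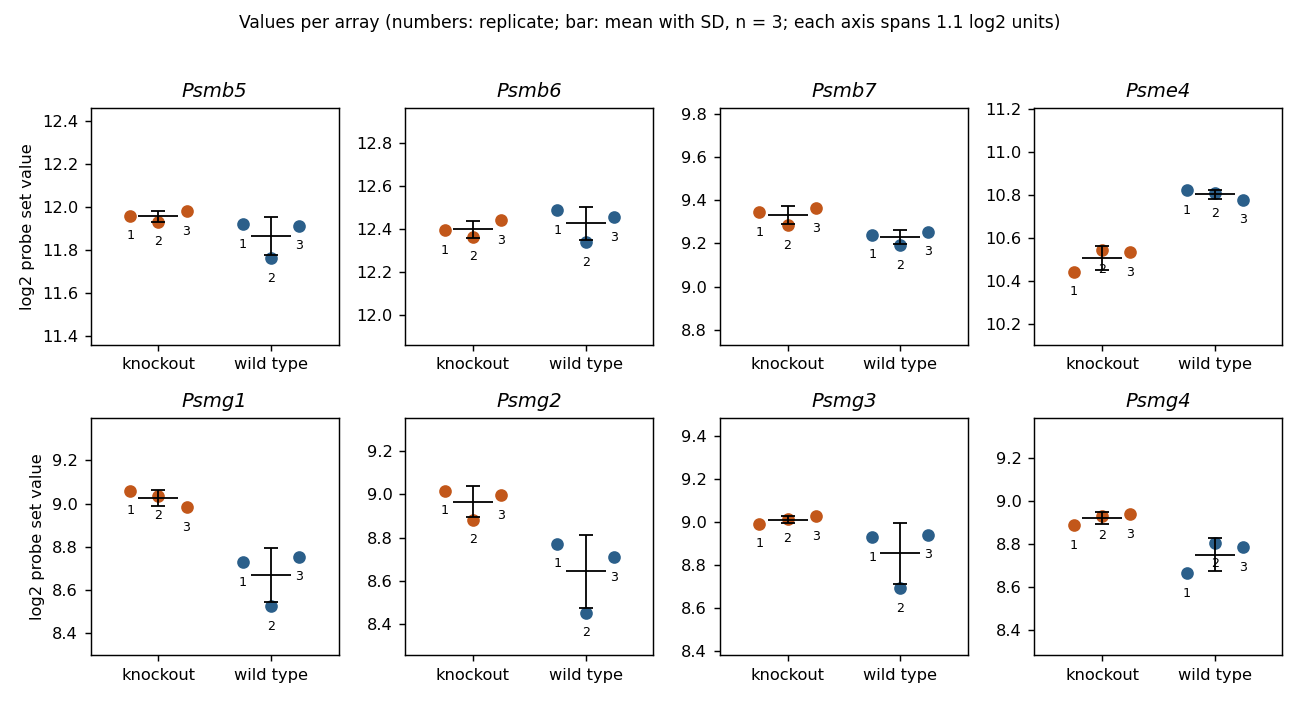
Log2 probe set value (y axis) of the catalytic subunits Psmb5, Psmb6 and Psmb7, the cap gene Psme4 and the chaperones Psmg1 to Psmg4, for 3 knockout and 3 wild-type arrays (x axis); numbers are replicates, bars are the mean with SD. Psme4 is lower and Psmg1 to Psmg4 are higher on every knockout array than on any wild-type array, and wild-type replicate 2 is the lowest point for Psmg1, Psmg2 and Psmg3.

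Psme4, which codes for the cap PA200, fell. PA200 opens the 20S core without ATP and is known for the breakdown of acetylated histones. Its brightest probe set read 10.44, 10.54 and 10.53 in knockout and 10.82, 10.81 and 10.78 in wild type. These groups were clearly apart, with a difference of -0.29 (SE 0.06, limma adjusted p = 0.0426), or 81.5% of wild type with a 95% interval of -0.44 to -0.15 on the log2 scale. The mean was lower in knockout for all 6 Psme4 probe sets, and for 5 of the 6 the groups did not overlap, though the brightest was the only one called. Over all genes, read from their brightest probe sets, 11.2% were so separated downward. Of genes above the median level 42.7% did not overlap in either direction. The 6 probe sets read the same gene on the same arrays, so they are not independent results. The probe sets other than the brightest differed by -0.20, -0.19, -0.24, -0.34 and -0.24, from bright to dim. The dimmest, at -0.34 and -0.24, had means of 5.57 and 5.04 over the 6 arrays, under the median of all values. The other at -0.24, with a mean of 6.15, was the one whose groups overlapped. With the _s_at and _x_at probe sets removed, since these can bind related transcripts, Psme4 lay at -0.20 (limma adjusted p = 0.148). Leaving out an array gave -0.31 to -0.26 and ended the call each time (limma adjusted p = 0.0760 to 0.131).

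The other regulators of the core did not pass. Psme3, whose product PA28 gamma caps the core in the nucleus, read 8.40, 8.36 and 8.39 in knockout against 8.39, 8.31 and 8.37 in wild type, a difference of 0.03 (SE 0.06, limma adjusted p = 0.853). Psmf1, which codes for the inhibitor PI31, differed by -0.02 (SE 0.07, limma adjusted p = 0.899), with overlapping groups. Of the 2 partner genes caught by the naming rule, Psmc3ip, a meiotic recombination factor, lay at 0.37 (SE 0.09, limma adjusted p = 0.0661) at a level of 5.50, under the median of all values, and Psme3ip1 at 0.03 (limma adjusted p = 0.870).

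Of the 4 measured inducible genes, which the rule leaves out, 2 fell. Psmb9 fell by 0.56 (SE 0.12, limma adjusted p = 0.0377) and Psmb10 fell by 0.50 (SE 0.10, limma adjusted p = 0.0342) on the log2 scale. Psmb8 (-0.22, limma adjusted p = 0.139) and the cap gene Psme1 (-0.20, limma adjusted p = 0.141) did not pass. Psme2 shares its probe set with a second gene and was not analysed here. The calls of Psmb9 and Psmb10 each held in 1 of the 6 fits without an array (limma adjusted p = 0.04995 to 0.122 for Psmb9 and 0.0302 to 0.114 for Psmb10). They were lost with the floor (0.155 and 0.138) and the replicate block (0.0700 and 0.0803), while Psmb8 and Psme1 passed with trend and robust settings (0.0336 and 0.0292, all limma adjusted p).

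Whether a pair of partners changed unequally was asked with the log2 ratio of the inducible to the constitutive gene on the same array, which gives the change of the ratio and not the share of either subunit. Psmb9 minus Psmb6 was -2.19, -2.13 and -2.05 in knockout and -1.80, -1.22 and -1.74 in wild type, so the ratio was lower on each knockout array, by 0.54 in the mean. Psmb10 minus Psmb7 was 1.39, 1.38 and 1.56 against 1.93, 2.27 and 1.93, a change of -0.60. Psmb8 minus Psmb5 was -0.17, -0.08 and -0.07 against 0.08, 0.43 and 0.12, a change of -0.32. Psme1 minus Psme3, a comparison of cap genes and not of a swapped catalytic subunit, changed by -0.23, again without overlap. Each of the 4 ratios thus separated the genotypes as fully as 6 arrays can. The exact two-sided permutation test gave p = 0.1 for each, the smallest this design allows (0.1 adjusted over the 4), so none could reach 0.05. Over single genes, 31.9% of all and 42.7% of those above the median level did not overlap. The share for ratios of other genes was not counted. The 4 inducible genes were each lower without overlap by themselves, so the ratios are no separate result. Wild-type replicate 2 had the highest ratio in every pair, and without it the changes were -0.35, -0.49, -0.20 and -0.16 in the order given here.

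**Figure D3:**
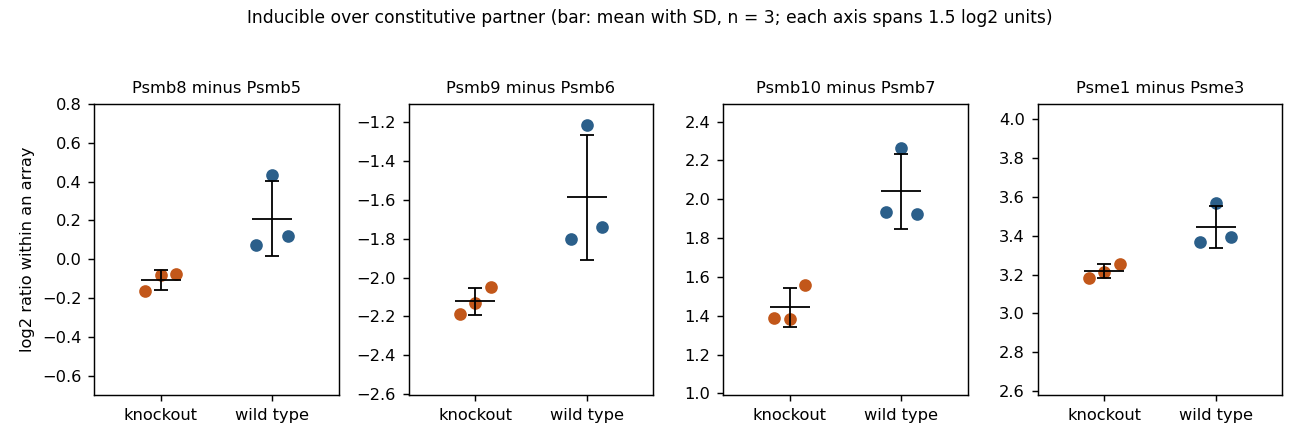
Log2 ratio of an inducible to a constitutive gene within an array (y axis) for 3 knockout and 3 wild-type arrays (x axis). There are 4 pairs, points are arrays and bars the mean with SD. The pair of Psme1 and Psme3 holds cap genes and no swapped catalytic subunit. In each pair all knockout points lie below all wild-type points, and the changes are -0.32, -0.54, -0.60 and -0.23 from left to right.

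Few other genes of the pathway passed the test. Among 10 measured parts and partners of the proteasome outside the naming rule, 0 passed (limma), and the median difference was 0.014. An unadjusted p under 0.05 was found for 2 of the 10, beside 23.4% of all genes, so this count does not stand out. The 2 were Zfand5, a zinc-finger activator of the particle (-0.30, SE 0.07, limma adjusted p = 0.0506), and Usp14, its reversible deubiquitinase (0.28, SE 0.09, limma adjusted p = 0.106). Zfand5 was read from an _s_at probe set: it lay at -0.15 without such probe sets (limma adjusted p = 0.218) and at -0.18 with the mean of its probe sets, and passed with above-median probe sets, trend and robust settings and array weights (limma adjusted p = 0.0282, 0.00589 and 0.0437). Usp14 lay at 0.16 with the mean of its probe sets and passed with trend and robust settings (limma adjusted p = 0.0379). The deubiquitinase Uchl5 lay at 0.17 and the ubiquitin ligase Ube3c at 0.11. Among 8 measured genes of ubiquitin supply and delivery, Ubqln2, a shuttle that brings ubiquitinated proteins to the particle, rose by 0.34 (SE 0.07, limma adjusted p = 0.0344), 0 fell and 7 did not pass, with the shuttle Rad23b at 0.22 (limma adjusted p = 0.0918). Ubqln2 lost its call in all 6 fits without an array (limma adjusted p = 0.0527 to 0.114) and lay at 0.11 with the mean of its probe sets. Rad23b lay at 0.07 with the mean of its probe sets (limma adjusted p = 0.593) and passed with above-median probe sets and with trend and robust settings (limma adjusted p = 0.0388 and 0.0265).

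Among 7 measured regulators of proteasome gene transcription, Mafk, a small MAF protein that pairs with NRF1 and NRF2 at the antioxidant response element, fell by 0.47 on the log2 scale (SE 0.09, limma adjusted p = 0.0257), 0 rose and 6 did not pass. Its call held in 1 of the 6 fits without an array (limma adjusted p = 0.0192 to 0.0975). Nfe2l1, which codes for NRF1, lay at 0.11 (limma adjusted p = 0.386), Nfe2l2, which codes for NRF2, at 0.09 (limma adjusted p = 0.453), Ngly1, the enzyme that strips sugars from NRF1, at 0.19 (limma adjusted p = 0.178) and the NRF2 repressor Keap1 at -0.28 (limma adjusted p = 0.149), or -0.19 without wild-type replicate 2.

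Across the arrays, the groups followed different patterns. The deviation of a group was taken as the mean, over its genes, of an array's distance from each gene's mean over the 6 arrays. The 14 subunits of the 20S core lay at 0.018, -0.0074 and 0.0075 on knockout replicates 1 to 3 and at 0.0098, -0.04 and 0.011 on the wild-type arrays. The 17 of the 19S cap lay at 0.011, 0.013 and 0.02 against 0.02, -0.08 and 0.016. Both particles were thus level on 5 arrays and low on wild-type replicate 2. The Psmg genes lay at 0.13, 0.11 and 0.13 in knockout and at -0.08, -0.24 and -0.06 in wild type. The inducible genes ran the other way, at -0.23, -0.23 and -0.10 against 0.09, 0.35 and 0.11, with wild-type replicate 2 at the far end again.

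**Figure D4:**
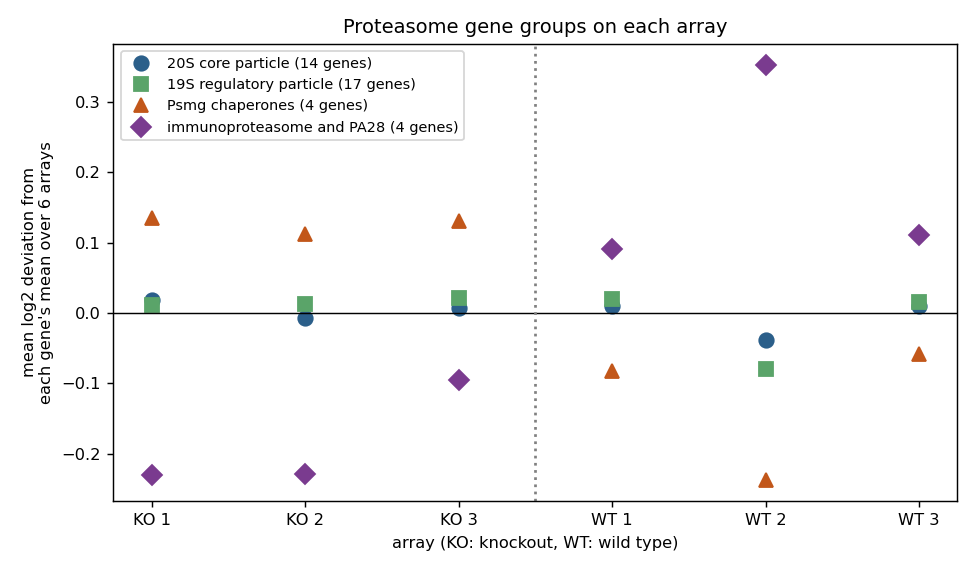
Mean log2 deviation from each gene's mean over 6 arrays (y axis) on each array (x axis) for the 20S core (14 genes), the 19S cap (17 genes), the 4 Psmg chaperones and the 4 inducible genes. Core and cap stay near 0 except on wild-type replicate 2, where they lie at -0.04 and -0.08, the Psmg genes at -0.24 and the inducible genes at 0.35.

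Other lists differed on the same arrays. RNA came from whole cultures, in which fewer cells of a type and less RNA per cell cannot be told apart. Of 9 measured proliferation genes 6 rose and 0 fell, with a median of 0.59. Their mean level ranged over 8.78 to 9.18 in knockout and over 8.32 to 8.62 in wild type. It was lowest on wild-type replicate 2, as were the means of the Psmg genes, the core, the cap and the dendritic cell markers. On knockout replicates 1 to 3 the mean deviation was 0.31, 0.44 and 0.04 for the proliferation genes, beside 0.13, 0.11 and 0.13 for the Psmg genes. Dendritic cell markers had 1 of 9 higher (median 0.20; mean level 8.74 to 9.06 against 8.57 to 8.68). Macrophage markers had 2 of 7 lower (median -0.08; 11.96 to 12.12 against 12.26 to 12.34), and fibroblast markers 3 of 8 lower (median -0.32; 4.92 to 5.04 against 5.43 to 5.49), with 5 of the 8 below the median of all values. Of 10 neutrophil markers 0 passed, with a median of -0.44 (8.54 to 9.08 against 9.19 to 9.43). T cell, B cell, erythroid, epithelial, and mast cell and basophil markers had 0 called. The part of these shifts in the Psmg1 and Psme4 results was not tested.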

How the data were processed

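The deposited table holds 1 log2 value per probe set and array, as the authors normalized it; the log2 scale was read from the values. Per the submitters' processing notes, GCRMA 2.30.0, RMA, affy 1.36.1 and limma 3.14.4 are the tools named. No step is tied to a tool there, so whether GCRMA or RMA made the values is unknown, and dim probe sets depend on that choice. The 64 control probe sets were left out. Genes came from the platform annotation (34945 probe sets with 1 gene), and a gene was read from its brightest probe set (6-array mean).

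The genotypes were compared with lmFit and eBayes of limma 3.58.1 (R 4.3.3) on a model holding genotype alone, with Benjamini-Hochberg adjustment over 45037 probe sets, a threshold of 0.05, and no filter. SEs, adjusted p-values and 95% intervals in the text are limma's. Within-array ratios were tested by exact permutation. The fit was also run on simulated arrays with independent noise for each probe set. These held no shift shared by many genes, such as that on wild-type replicate 2, so they cannot show how the fit handles one. The number of arrays limits the precision.

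Per-array values were given for Psmb5, Psmb6 and Psmb7, for members past the threshold and for the member with the smallest p in each other subcomplex; of each pathway list, up to 4 genes with the smallest p were named. Per-array values of the Psmg genes, Psma4, Psmd14 and Psme3 and the motifs were chosen after values were seen, as were Nfe2l2 and Pomp. The members and lists were chosen with earlier results of these data known. Alternatives were 2 scalings, filters, a floor, variance settings, array weights, the replicate block, other probe set rules, leaving out each array, and a threshold of 0.1. Figures used matplotlib 3.10.9 in Python 3.11.15.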

Additional observations from a re-analysis of the deposited data

How the results depend on the processing

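The number of members called higher in knockout, 1, was 0 after quantile normalization, with the floor and with the replicate block, 2 with trend and robust settings (Psmg1 and Psmg2), and 3 at an adjusted p under 0.1; leaving out an array gave 0 to 1. The number called lower, 1, was 0 after median centring, with the floor, with the replicate block and without _s_at and _x_at probe sets, and 2 with trend and robust settings (Psme4 and the core subunit Psma4); leaving out an array gave 0. The call of Psmg1 held in 6 of 9 other settings and that of Psme4 in 5 of 9, and neither changed sign in any. Psmg1 has 1 probe set, so leaving out _s_at and _x_at probe sets could not change its result. Averaging probe sets likewise left its values unchanged. The labels do not say whether the replicate numbers pair the samples. Same-numbered arrays correlated at -0.064, -0.043 and -0.132 in their deviations. These values show no shared shift but cannot settle whether the cultures were prepared together. The block lowered the genes called from 519 higher and 373 lower to 22 and 23. Those numbers were 24 and 7 with the floor, 1184 and 503 with trend and robust settings, 1043 and 479 with above-median probe sets, 1280 and 661 at an adjusted p under 0.1, and 9 to 369 and 8 to 400 without an array. Quantile normalization lowered the share of calls that were higher from 58.2% to 46.9%. The median difference of the members stayed between 0.025 and 0.055 in 9 settings and between 0.0076 and 0.06 without an array, and the 4 ratios kept their direction in every setting run; as values with no reachable threshold their p says nothing about stability. The median of the Psmg genes was 0.16 with the mean of probe sets. Differences near 0 changed sign, none called: after quantile normalization Psmc1 (0.0035), Psmd3 (-0.015), Psmd9 (-0.042) and Psme3 (-0.021), after median centring Psmc1 (0.0058), with array weights Psmc5 (-0.015), without _s_at and _x_at probe sets Psmd11 (0.17), and with the mean of probe sets Psmd9 (-0.015) and Psmf1 (0.028). Leaving out an array gave ranges across 0 for Psma2 (-0.029 to 0.003), Psmb2 (-0.0074 to 0.050), Psmb4 (-0.041 to 0.017), Psmb6 (-0.070 to 0.0031), Psmc1 (-0.025 to 0.0052), Psmc5 (-0.063 to 0.061), Psmd3 (-0.028 to 0.057), Psmd7 (-0.021 to 0.091), Psmd9 (-0.014 to 0.032) and Psmf1 (-0.073 to 0.020). The cause of each change was not tested.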
